A study of Mus musculus with 12 samples.

Results

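Expression of 10 heat shock genes in the mouse striatum was followed after intracerebral hemorrhage (ICH) at 2 ages: Hspa1a, Hspa1b, Hspb1, Dnajb1, Hsph1, Hsp90aa1, Hspa8, Bag3, Hspe1 and Hspd1. Their rows were found by symbol. These 10 genes are part of 54833 genes in the count table, of which 21495 had enough counts to be tested, and all 10 passed that filter. The group is often called the cytosolic heat shock proteins. The name holds for 8 of the 10 genes, since Hspd1 and Hspe1 encode HSP60 and HSP10, the chaperonin of the mitochondrial matrix.

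RNA was sequenced from 12 samples of wild-type (WT) male C57BL/6 mice, with 3 samples in each of 4 groups. Young sham and young ICH mice were 8 to 10 weeks old, and aged sham and aged ICH mice were 20 to 22 months old. ICH was produced by injection of type IV collagenase, an enzyme that breaks down the basement membrane of vessels, into the caudate putamen. Sham mice received saline at the same site. All mice were perfused, and the perihematomal tissue of the injected side was taken 24 hours after surgery. Each sample was a pool of several mice, so replicate error here means variation among pools. The design addresses which genes respond to ICH at each age, and whether the response differs with age.

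Heat shock proteins are molecular chaperones that bind unfolded proteins and prevent their aggregation. HSP70 proteins bind and release clients in cycles driven by ATP, HSP40 proteins such as DNAJB1 deliver the clients, and exchange factors such as HSPH1 and BAG3 release the bound nucleotide. HSP90 finishes the folding of kinases and steroid receptors, and small heat shock proteins such as HSPB1 hold unfolded proteins without ATP. Under stress, heat shock factor 1 (HSF1) forms a trimer and binds heat shock elements, which are inverted repeats of GAA units in promoters. Some members are made at all times, as HSPA8 in neurons, whereas the inducible HSP70 genes Hspa1a and Hspa1b are low in the unstressed brain.

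The promoter stretches that hold heat shock element matches are printed first, because these elements define the group's best known control. The promoter table from RefSeq (assembly GRCm38.p6, 250 bases before to 50 bases after each start site) had 11 promoters for 8 of the 10 genes. It was searched for 2 inverted units, GAANNTTC or TTCNNGAA, and for 3 units, GAANNTTCNNGAA or TTCNNGAANNTTC. Each 3-unit match contains 2-unit matches, and the 2-unit motifs read the same on both strands. Matched bases are in capitals, and each sequence runs 5′ to 3′ on the strand of its gene.
Hspa1b, chr17:34959295-34959382, minus strand: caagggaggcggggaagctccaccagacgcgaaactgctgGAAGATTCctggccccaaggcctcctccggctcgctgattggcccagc
Hspb1, chr5:135887762-135887869, plus strand: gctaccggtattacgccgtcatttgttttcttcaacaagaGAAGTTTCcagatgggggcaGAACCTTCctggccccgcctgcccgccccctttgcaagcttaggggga
Hspe1, chr1:55088053-55088082, plus strand: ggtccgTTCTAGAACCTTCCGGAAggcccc
Hspd1, chr1:55088053-55088082, minus strand: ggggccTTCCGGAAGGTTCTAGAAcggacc
Hsph1, chr5:149636356-149636375, minus strand: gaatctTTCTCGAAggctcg

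The stretch of Hspa1b is found without a change upstream of Hspa1a, at chr17:34972213-34972300 on the minus strand, and the 2 promoters differ at 4 of 300 bases. In both genes the match lies at 104 to 97 bases before the start site. Hspb1 carries 2 separate matches, whereas Hspe1 and 1 start site of Hspd1 share a single element that lies between them. The other Hspd1 promoter held 0 matches, and the shared element overlaps an annotated exon. At least 1 promoter of 7 of the 8 genes held a 2-unit match, and the exception was Dnajb1. A 2-unit match was present in 15.1% of the 32851 promoters in the table. Matches of 3 units were found for 3 genes, Hspe1, Hspd1 and Hsph1, against 0.603% of all promoters. The match of Bag3 and the 3-unit match of Hsph1 lay downstream of the start site, and the stretch printed for Hsph1 holds its upstream 2-unit match. A match describes letters in a window and is not evidence of binding.

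**Figure D1:**
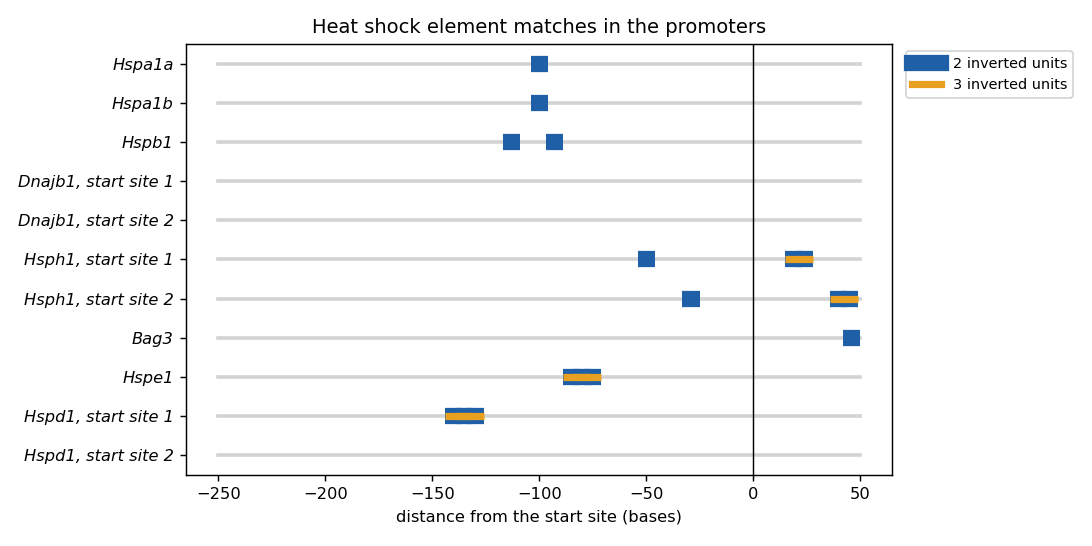
Heat shock element matches in the 11 RefSeq promoters of 8 heat shock genes. The horizontal axis gives the distance from the start site in bases, each grey line is 1 promoter, blue blocks mark 2-unit matches and yellow bars mark 3-unit matches. Hspa1a and Hspa1b have a match at the same distance, and neither promoter of Dnajb1 has one.

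By the GENCODE annotation of GRCm38, all 10 genes are protein coding, and pairs of them are neighbours. Hspa1a (ENSMUSG00000091971, chr17:34969190-34972156) and Hspa1b (ENSMUSG00000090877, chr17:34956436-34959238) lie on the minus strand. Of all 100-base windows of the Hspa1a transcript, 47.1% are also present in Hspa1b, and 49.9% of those of Hspa1b are present in Hspa1a. None is shared with Hspa8. No source used here says how reads with several matches were counted, so the split of counts between Hspa1a and Hspa1b is uncertain, and their sum is given beside them. If such reads were not counted, the levels of both genes and their sum would be too low. Hspa1a also overlaps the gene Gm20481 on the opposite strand over 2225 bases, and without strand information their reads cannot be told apart. Hspe1 (ENSMUSG00000073676, chr1:55088132-55091307, plus strand) and Hspd1 (ENSMUSG00000025980, chr1:55077835-55088243, minus strand) overlap head to head by 112 bases. Bag3 overlaps 2610306O10Rik on the same strand over 612 bases.

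The samples held 28410896 to 37785160 counts in genes. All 10 markers of striatal projection neurons, such as Ppp1r1b and Drd1, were detected in every group, with summed levels of 1790 to 3049 CPM (gene counts scaled to the total of each library) in young sham, 515.9 to 1738 in young ICH, 1524 to 2662 in aged sham and 326.6 to 1926 in aged ICH samples. The lowest sum belonged to aged ICH sample 1. Choroid plexus markers were uneven, at 4031 CPM in the highest young ICH sample and 1542 and 1959 CPM in aged ICH samples 1 and 2, against 9.453 to 482.7 CPM in all others. In bulk tissue, fewer cells of a type and less RNA per cell cannot be told apart.

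Levels between genes were compared per length, as fragments per kilobase, scaled to library size (FPKM). In young sham samples Hspa8 had the highest mean, at 361.5 ± 10.9 FPKM (SD, n = 3), followed by Hsp90aa1 at 264.6 ± 18.6 FPKM. Hspd1 reached 64.4 ± 2.2 FPKM and Hsph1 48.8 ± 2.1 FPKM, and their ranges did not overlap. Hspe1 and Dnajb1 were lower, at 26.0 ± 2.1 and 16.4 ± 0.25 FPKM. The lowest 4 genes were Hspb1 at 3.48 ± 0.55, Bag3 at 3.05 ± 0.30, Hspa1b at 2.20 ± 0.30 and Hspa1a at 1.40 ± 0.27 FPKM. The values of Hspa1b and Hspa1a, and so their place in this order, would be too low if reads shared by both were not counted. The ranges of Hspb1 and Bag3 overlapped, so the order of these neighbours was within their spread.

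Hspa1b, an inducible HSP70 gene, rose after ICH in aged mice. Its levels were 5.58, 6.41 and 7.33 CPM in young sham and 8.45, 8.59 and 9.33 CPM in young ICH samples. In aged mice they were 8.67, 6.47 and 6.56 CPM in sham and 24.1, 15.0 and 16.2 CPM in ICH samples. All 3 aged ICH samples were above the other 9 samples, and the ICH groups did not overlap with the sham groups of the same age. The log2 fold change (log2FC) was 1.35 ± 0.19 (SE) in aged mice, a fold of 2.55 (edgeR adjusted P = 0.00381), and 0.45 ± 0.19 in young mice (edgeR adjusted P = 0.115). Without aged ICH sample 1, the highest of its group, the aged log2FC was 1.11 (edgeR adjusted P = 0.0167).

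Hspa1a showed the same order of groups, at lower levels. Young sham samples had 3.57, 4.25 and 5.18 CPM and young ICH samples 5.57, 6.29 and 5.61 CPM. Aged sham samples had 4.93, 5.06 and 5.06 CPM, and aged ICH samples had 16.0, 9.95 and 8.14 CPM. Again the 3 aged ICH samples were the highest of all 12, and aged ICH sample 1 stood above the other two. The log2FC was 1.18 ± 0.22 in aged mice (fold 2.27, edgeR adjusted P = 0.00856) and 0.43 ± 0.22 in young mice (edgeR adjusted P = 0.203). When the counts of both genes were summed, which avoids the uncertain split but not a loss of shared reads, the log2FC was 1.28 ± 0.18 in aged mice (edgeR adjusted P = 0.00412) and 0.44 ± 0.18 in young mice (edgeR adjusted P = 0.112).

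Hspa8 (ENSMUSG00000015656, chr9:40800984-40810087, plus strand) encodes HSC70, the constitutive HSP70 of the cytosol. It fell after ICH in young mice, from 1605, 1594 and 1671 CPM to 1399, 1179 and 1385 CPM, with no overlap (log2FC −0.30 ± 0.08, edgeR adjusted P = 0.0234). The aged samples had 1342, 1282 and 1285 CPM after sham surgery and 1163, 1241 and 1133 CPM after ICH. These groups did not overlap either, but the log2FC of −0.14 ± 0.08 did not pass the test (edgeR adjusted P = 0.254). The call in young mice was lost when any 1 of the 3 young sham samples or young ICH sample 2 was left out, with an edgeR adjusted P of at most 0.0760, and when only the 2 young groups were fitted (edgeR adjusted P = 0.100).

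The inducible share among these 3 HSP70 transcripts followed from their levels. Other HSP70 genes were left out of it, such as Hspa2, with a mean of 14.15 FPKM in young sham samples. Hspa1a and Hspa1b made up 0.848, 0.993 and 1.11% of the summed FPKM of Hspa1a, Hspa1b and Hspa8 in young sham samples, and 1.48, 1.86 and 1.60% in young ICH samples. In aged sham samples the share was 1.502, 1.33 and 1.34%, and in aged ICH samples it was 4.92, 2.93 and 3.14%. The share was above 2% only in aged ICH samples, and Hspa8 remained the main transcript in all 12. All these shares would be too low if reads shared by Hspa1a and Hspa1b were not counted.

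**Figure D2:**
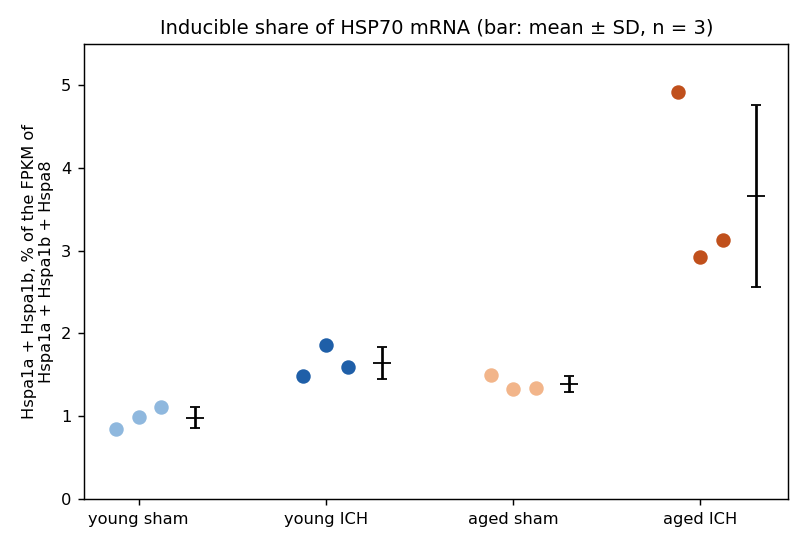
Share of Hspa1a plus Hspa1b in the summed FPKM of Hspa1a, Hspa1b and Hspa8, in percent, for each of the 12 samples by group, with the mean and SD. Aged ICH samples lie between 2.93 and 4.92%, above all others, which lie between 0.848 and 1.86%. Reads shared by Hspa1a and Hspa1b may be uncounted, which would lower all shares.

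Hspb1 (ENSMUSG00000004951, chr5:135887919-135889563, plus strand) encodes HSP27 (HSP25 in mice), a small heat shock protein that also binds actin filaments and is known from reactive astrocytes and vessels. Its change was the largest of the 10 genes at both ages. Young sham samples had 3.68, 3.20 and 4.36 CPM, against 25.0, 13.01 and 23.1 CPM after ICH. Aged sham samples had 5.30, 3.24 and 5.60 CPM, against 46.2, 20.7 and 23.6 CPM after ICH. Sham and ICH samples were fully separated at both ages, whereas young and aged ICH samples overlapped. The log2FC was 2.44 ± 0.35 in young mice (fold 5.44, edgeR adjusted P = 0.00187) and 2.68 ± 0.34 in aged mice (fold 6.39, edgeR adjusted P = 0.00316).

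Bag3 (ENSMUSG00000030847, chr7:128523616-128546981, plus strand) encodes a cochaperone that joins HSP70 to small heat shock proteins and to selective autophagy. It rose from 9.09, 7.68 and 7.72 CPM to 14.5, 12.98 and 20.0 CPM in young mice, and from 12.1, 9.003 and 13.3 CPM to 22.0, 18.7 and 22.3 CPM in aged mice. ICH and sham samples of the same age did not overlap, although the highest aged sham sample lay above the lowest young ICH sample. The log2FC was 0.95 ± 0.18 (edgeR adjusted P = 0.00483) in young and 0.87 ± 0.18 (edgeR adjusted P = 0.0109) in aged mice. Without aged ICH sample 1 the aged value was 0.83, with an edgeR adjusted P of 0.0509.

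Markers of other cells also changed in the comparisons of Hspb1, Bag3, Hspa1a and Hspa1b. The summed level of 6 astrocyte markers was 1549 to 1804 CPM in young sham, 2810 to 3664 in young ICH, 1580 to 2180 in aged sham and 2895 to 3347 in aged ICH samples, and 4 of the 6 genes were called higher in young and 3 in aged mice, where Gja1 was called lower (log2FC −0.51 ± 0.14, edgeR adjusted P = 0.0320). The 7 neutrophil markers summed to 10.0 to 12.4, 18.2 to 34.5, 14.2 to 22.9 and 34.3 to 48.8 CPM in the same order of groups. Of these, 5 were tested, without Ly6g and Mpo, and all 5 were called higher at each age. Those of monocytes and macrophages summed to 41.8 to 47.6, 88.0 to 140.6, 50.3 to 94.7 and 123.2 to 137.0 CPM (4 of 7 called higher in young and 3 in aged mice). Endothelial markers summed to 187.1 to 228.9, 271.1 to 306.6, 226.7 to 262.7 and 267.7 to 323.6 CPM (4 and 3 of 6). Red blood cell markers summed to 5.20 to 22.4, 29.0 to 120.8, 27.8 to 39.5 and 24.3 to 82.0 CPM (3 of 5 called higher in young and 0 in aged mice). Of 11 immediate early genes, Atf3 and Jun were called higher at both ages, and Egr1, Npas4 and Nr4a1 lower in young mice. A lower call was also made for 1 of 5 microglia markers at both ages, P2ry12, whereas the pericyte marker Pdgfrb (1 of 5) was higher at both. No marker of these lists was at 0 throughout a group. Their part in the heat shock gene values was not tested.

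**Figure D3:**
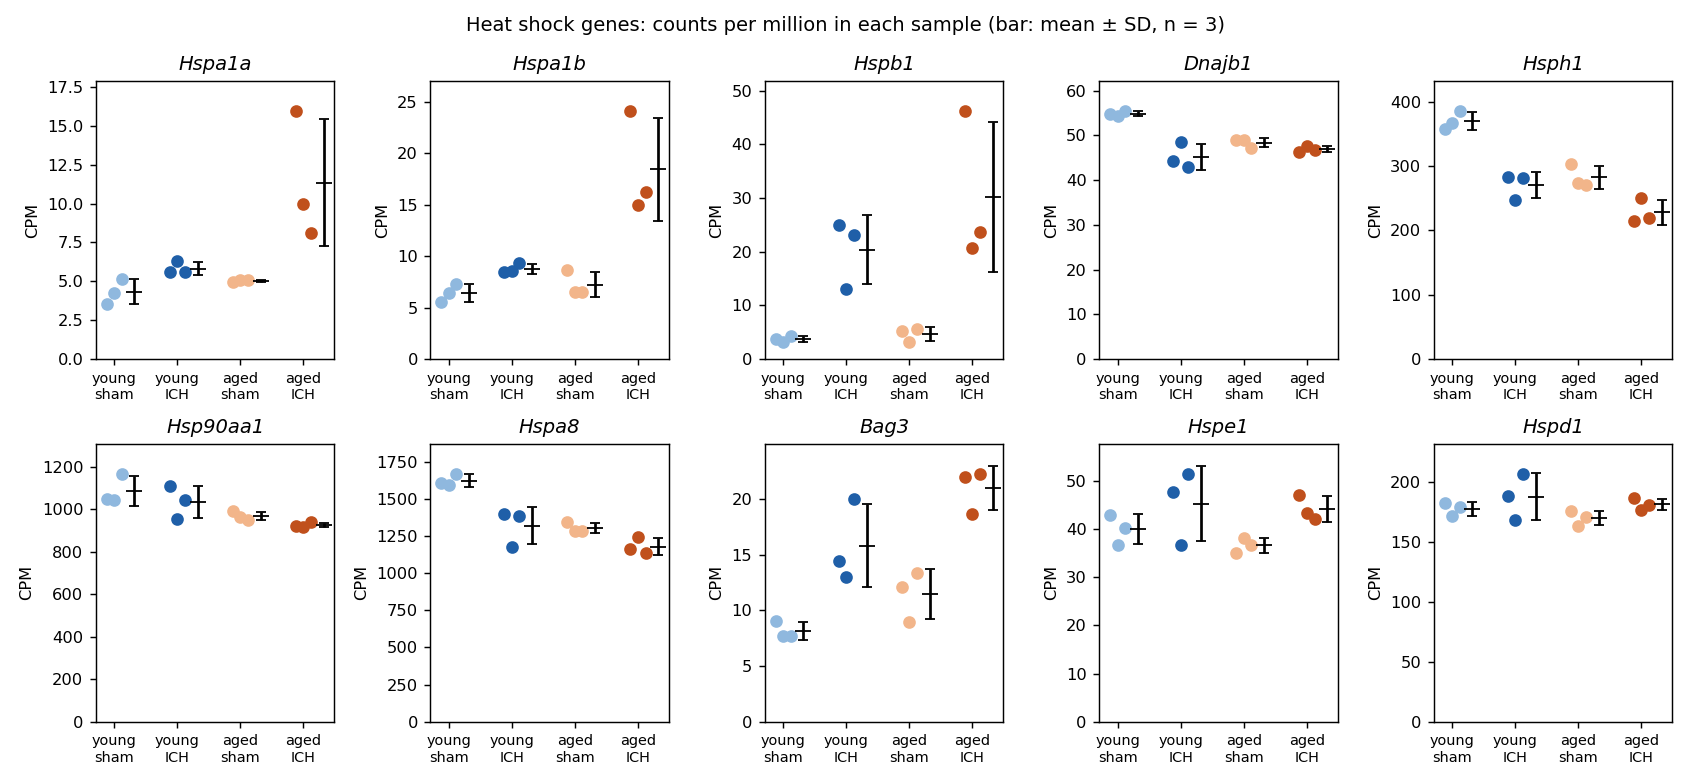
CPM of the 10 heat shock genes in each of the 12 samples (points, linear axes from 0) with the mean and SD of each group (n = 3). Hspa1a and Hspa1b are highest in the 3 aged ICH samples, Hspb1 and Bag3 are high in both ICH groups, and Hsph1 is highest in the young sham samples.

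Hsph1 (ENSMUSG00000029657, chr5:149614287-149636376, minus strand) encodes HSP110, an exchange factor and disaggregase partner of HSP70 that is abundant in neurons. It fell after ICH at both ages. The samples had 358.1, 366.6 and 386.1 CPM in young sham, 283.7, 247.2 and 282.0 CPM in young ICH, 303.2, 274.4 and 270.1 CPM in aged sham, and 214.8, 250.9 and 218.8 CPM in aged ICH mice. Young sham samples were above the other 9 samples, and young ICH overlapped with aged sham. The log2FC was −0.45 ± 0.08 in young mice (edgeR adjusted P = 0.00410) and −0.31 ± 0.08 in aged mice (edgeR adjusted P = 0.0289). The aged call was lost in several fits. The edgeR adjusted P was 0.0551 with the replicate number as a block, 0.0560 with only the aged groups fitted, and 0.0648 to 0.128 without aged sham sample 1 or 2 or without aged ICH sample 1 or 3.

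Dnajb1 (ENSMUSG00000005483, chr8:83608193-83612653, plus strand), a gene of the HSP40 family, fell in young mice. Levels were 54.7, 54.4 and 55.5 CPM in young sham and 44.2, 48.5 and 43.0 CPM in young ICH samples (log2FC −0.28 ± 0.06, edgeR adjusted P = 0.00651). Aged sham samples had 48.9, 48.9 and 47.2 CPM and aged ICH samples 46.2, 47.7 and 46.8 CPM, which overlapped (log2FC −0.04 ± 0.06, edgeR adjusted P = 0.658). Young sham samples lay above all others.

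The sum of the markers of neurons in general was also lower in these comparisons. These 6 markers, Map2, Nefl, Rbfox3, Snap25, Syt1 and Tubb3, summed to 6222 to 7444 CPM in young sham, 4427 to 5831 in young ICH, 6107 to 6792 in aged sham and 4948 to 5473 in aged ICH samples. Of these, 3 were called lower in young mice (Map2, Syt1 and Tubb3) and 0 in aged mice, and none was at 0 throughout a group. Rbfox3 hardly changed, with a log2FC of −0.04 in young mice (edgeR adjusted P = 0.829) and −0.04 in aged mice (edgeR adjusted P = 0.831). The part of neuronal RNA in the lower Hsph1, Hspa8 and Dnajb1 levels was not tested.

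Hsp90aa1 (ENSMUSG00000021270, chr12:110690605-110702728, minus strand), the stress-inducible form of cytosolic HSP90, did not pass the test at either age. Its 4 groups had 1086 ± 71.6, 1035 ± 75.5, 967.7 ± 19.5 and 925.8 ± 11.7 CPM (SD, n = 3), in the order young sham, young ICH, aged sham, then aged ICH. The log2FC after ICH was −0.07 ± 0.07 in young mice (edgeR adjusted P = 0.549) and −0.06 ± 0.07 in aged mice (edgeR adjusted P = 0.608). The aged groups did not overlap, at 951.3 to 989.3 and 915.8 to 938.6 CPM.

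Hspe1 and Hspd1, which encode the mitochondrial chaperonin and share the element printed above, did not pass the test either. Hspe1 had 39.96 ± 3.1 CPM in young sham, 45.3 ± 7.7 in young ICH, 36.7 ± 1.6 in aged sham and 44.2 ± 2.6 in aged ICH samples. Its log2FC was 0.18 ± 0.11 in young mice (edgeR adjusted P = 0.280) and 0.27 ± 0.11 in aged mice (edgeR adjusted P = 0.133), and the aged groups did not overlap. In young ICH mice it varied from 36.7 to 51.5 CPM. Without the lowest of these, young ICH sample 2, Hspe1 passed the test at both ages, with a log2FC of 0.32 (edgeR adjusted P = 0.0241) and 0.28 (edgeR adjusted P = 0.0353), and in aged mice it also passed when only the aged groups were fitted (edgeR adjusted P = 0.0371). Hspd1 had 177.5 ± 5.5, 187.9 ± 19.5, 170.0 ± 5.9 and 181.5 ± 4.8 CPM in the same order, with a log2FC of 0.08 ± 0.07 (edgeR adjusted P = 0.455) and 0.09 ± 0.07 (edgeR adjusted P = 0.418).

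Taken by number, 2 heat shock genes were called higher and 3 lower in young ICH vs. young sham, against 19.1% of all genes tested (9.89% higher and 9.23% lower). In aged ICH vs. aged sham, 4 were higher and 1 was lower, against 13.2% of all genes (7% higher and 6.15% lower). A call means an adjusted P below 0.05 over all genes tested. Hspb1, Bag3 and Hsph1 were called in the same direction at both ages. The median log2FC of the 10 genes was 0.13 in young and 0.18 in aged mice, and the median of all genes was 0.02 and 0.00. ICH and sham samples did not overlap for 7 of the 10 genes in young and 9 of the 10 in aged mice, against 35% and 35.1% of all genes. By the fold criterion of the study (fold change above 1.5 or below 0.67 with an unadjusted P below 0.05), 2 genes (Hspb1 and Bag3) passed in young and 4 (with Hspa1a and Hspa1b) in aged mice, all higher, against 12.2% and 10.1% of all genes (8.66% and 7.24% higher). None of the 3 lower genes reached that fold.

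**Figure D4:**
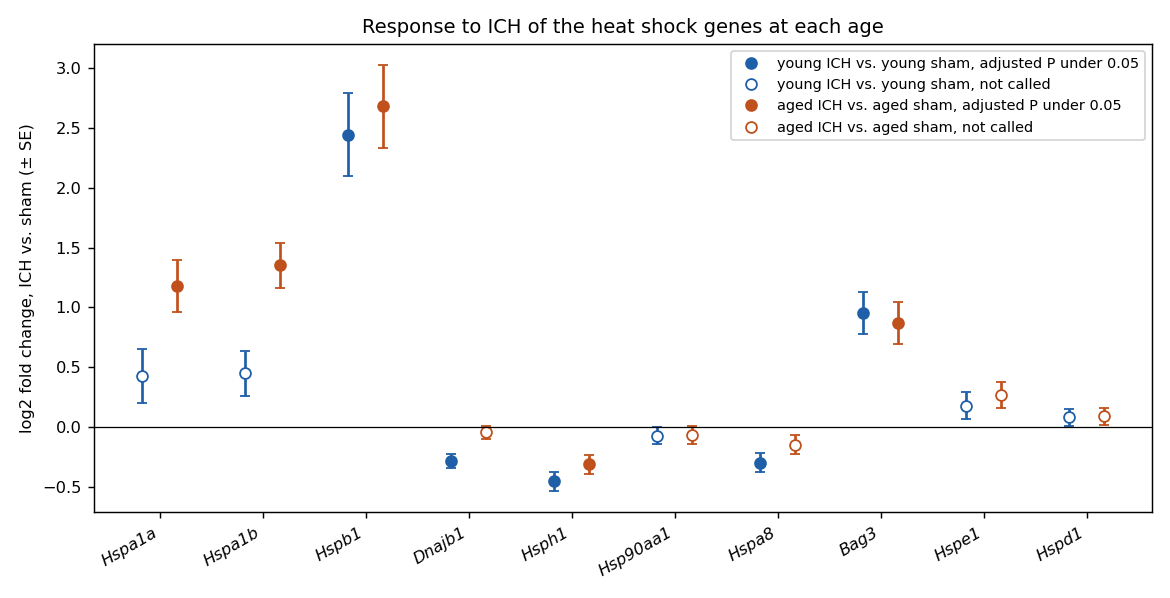
Log2 fold change of each heat shock gene after ICH, with its SE, in young and in aged mice. Hspb1 has the largest values (2.44 and 2.68), and the values of Hspa1a and Hspa1b are 1.18 and 1.35 in aged mice against 0.43 and 0.45 in young mice.

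Age alone gave no call among the 10 genes. In aged sham vs. young sham, 0 were called by edgeR at an adjusted P below 0.05, against 0.102% of all genes, and 5 had an unadjusted P below 0.05, as had 12.3% of all genes. Of these, 4 were lower in aged mice. The log2FC was −0.39 ± 0.08 for Hsph1 (edgeR adjusted P = 0.126), −0.32 ± 0.08 for Hspa8 (edgeR adjusted P = 0.186), −0.18 ± 0.06 for Dnajb1 (edgeR adjusted P = 0.247) and −0.17 ± 0.07 for Hsp90aa1 (edgeR adjusted P = 0.389). In each of these 4 genes, all aged sham samples were below all young sham samples, against 21% of all genes without overlap. The fifth gene, Bag3, was higher, with a log2FC of 0.49 ± 0.18 (edgeR adjusted P = 0.305), and its groups overlapped at the ends of their ranges. DESeq2 called 2 genes lower, Hsph1 (adjusted P = 0.00169) and Hspa8 (adjusted P = 0.00301). It also called more of all genes here, 294 against 22 by edgeR.

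Aged ICH vs. young ICH likewise gave 0 calls by edgeR, against 0.0558% of all genes, and 5 members had an unadjusted P below 0.05, as had 9.54% of all genes. The values were 1.07 ± 0.18 for Hspa1b (edgeR adjusted P = 0.0909) and 0.96 ± 0.22 for Hspa1a (edgeR adjusted P = 0.185), with all 3 aged samples above all 3 young samples for both genes, the only members past the study's fold criterion here (3.52% of all genes). Groups were separate for 3 of the 10 genes, the third being the lower Hsp90aa1 (log2FC −0.16 ± 0.07, edgeR adjusted P = 0.522), against 13.3% of all genes. Bag3 was 0.41 ± 0.17 (edgeR adjusted P = 0.494) and Hsph1 −0.25 ± 0.08 (edgeR adjusted P = 0.365). The result for Hspa1b depended on the method: DESeq2 gave an adjusted P of 4.89e-05, and edgeR without a filter on low counts gave 0.0111. For Hspa1a, DESeq2 gave an adjusted P of 0.00735. DESeq2 called 198 of all genes in this comparison, against 12 by edgeR. Without aged ICH sample 1 the log2FC was 0.83 for Hspa1b (edgeR adjusted P = 0.224) and 0.64 for Hspa1a (edgeR adjusted P = 0.495).

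Whether the response to ICH differed with age was tested directly, as the difference of the aged and the young log2FC. It was 0.90 ± 0.26 for Hspa1b (unadjusted P = 0.00513), 0.75 ± 0.31 for Hspa1a (unadjusted P = 0.0335) and 0.24 ± 0.08 for Dnajb1 (unadjusted P = 0.0115) in the edgeR fit. None passed after adjustment over all genes (edgeR adjusted P = 0.9999 for each), and neither did any of the 21495 genes, of which 606 (2.82%) had an unadjusted P below 0.05. DESeq2 called 1 gene, which was none of the 10. An exact permutation test exchanged young and aged labels separately among sham and among ICH samples, two-sided over 400 arrangements with a smallest possible P of 0.005, and gave P = 0.085 for Hspa1b, 0.195 for Hspa1a and 0.02 for Dnajb1. Its null is no difference with age after either surgery, so a difference between the sham groups also enters it. With the fold and unadjusted P limits that the study used for pairs of groups applied to this difference, which is not the study's own rule for age-dependent genes, Hspa1a and Hspa1b passed, as did 1.56% of all genes. For the other 7 genes the unadjusted edgeR P was 0.196 or above. The difference in the calls of Hspa1a, Hspa1b, Dnajb1 and Hspa8 between ages is therefore not shown to be a difference in response. When aged ICH sample 1 was left out, the difference was 0.66 for Hspa1b and 0.42 for Hspa1a. The unadjusted edgeR P of Hspa1a was at or above 0.05 in 7 of the 12 fits without 1 sample, and that of Hspa1b and Dnajb1 in 0 of the 12.

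The wider chaperone network was read from 10 lists with 88 further genes, of which 85 were tested. In young mice 5 were called higher and 12 lower after ICH, and in aged mice 3 higher and 10 lower. These are 20% and 15.3% of the 85, near the 19.1% and 13.2% of all genes tested. Their median log2FC was −0.04 and −0.03. Leaving out aged ICH sample 1 left 1 call in aged mice, and leaving out young ICH sample 3 gave 21. Between the ages, in sham or ICH mice, 0 of the 85 were called by edgeR.

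Of the small heat shock proteins, Hspb6 and Hspb8 rose with Hspb1. Hspb6, which encodes HSP20, had a log2FC of 1.52 ± 0.26 (edgeR adjusted P = 0.00337) in young and 1.37 ± 0.25 (edgeR adjusted P = 0.00824) in aged mice. For Hspb8, the small heat shock protein that binds BAG3, it was 1.41 ± 0.21 (edgeR adjusted P = 0.00224) and 1.07 ± 0.21 (edgeR adjusted P = 0.0102). They were 2 of 6 tested genes of this list, and the median log2FC of the 6 was 0.56 and 0.39. The other 4 were not called at either age. Of the genes listed, Cryab and Hspb3 had lower means after ICH at both ages. Cryab went from 62.2 to 58.3 CPM in young and from 60.9 to 51.8 CPM in aged mice. Hspb3 went from 1.495 to 0.94 CPM in young and from 1.29 to 0.85 CPM in aged mice.

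Among 11 HSP40 genes, which encode cochaperones of HSP70, 6 were called lower in young and 4 in aged mice, 0 were higher, and the others did not pass the test. The lower genes included Dnajc6, which encodes auxilin, the partner of HSC70 in the uncoating of clathrin vesicles (−0.44 ± 0.12 and −0.40 ± 0.12), and Dnajc5, which encodes the cysteine string protein of synaptic vesicles (−0.33 ± 0.07 and −0.25 ± 0.07). Dnajb14 gave −0.27 ± 0.08 and −0.28 ± 0.08, and Dnaja4 gave −0.32 ± 0.08 in aged mice. The edgeR adjusted P of these called values lay between 0.00824 and 0.0443. Among 8 other HSP70 genes, 2 were called lower at both ages, Hspa4 (−0.37 ± 0.06 and −0.28 ± 0.06) and Hspa4l (−0.36 ± 0.09 and −0.40 ± 0.09), which encode relatives of HSPH1. Of 8 genes of BAG proteins and other HSP70 cochaperones, listed without Bag3, Bag5 alone was called, and was lower (−0.32 ± 0.08 and −0.29 ± 0.08).

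The partners of HSP90 gave 3 calls of 11 genes in young mice and 0 in aged mice. Fkbp5, a glucocorticoid-induced immunophilin, had a log2FC of 0.72 ± 0.15 in young mice (edgeR adjusted P = 0.00757) and 0.45 ± 0.15 in aged mice (edgeR adjusted P = 0.0667). Ahsa2 was higher in young mice (0.21 ± 0.06) and Ahsa1, an activator of the HSP90 ATPase, was lower (−0.24 ± 0.08). Hsp90ab1, the constitutive HSP90, had −0.12 ± 0.07 and −0.04 ± 0.07 and was not called. In the aggregate clearance list of 8 genes, the proteasome shuttle genes Ubqln2 (−0.35 ± 0.08 and −0.31 ± 0.08) and Ubqln1 (−0.16 ± 0.05 and −0.17 ± 0.05) were lower at both ages.

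Other compartments gave few calls. Of 10 endoplasmic reticulum chaperones, Sdf2l1, part of a chaperone complex there, rose (0.64 ± 0.18 and 0.82 ± 0.18), and of 10 mitochondrial chaperones and proteases, Dnaja3, a mitochondrial HSP40 gene, fell in aged mice (−0.19 ± 0.05, edgeR adjusted P = 0.0378). None of the 8 genes of the cytosolic chaperonin CCT was called. The smallest P in that list was that of Cct7, with −0.17 ± 0.06 in young mice (edgeR adjusted P = 0.0653). None of the 5 tested genes of the heat shock factor list, 4 factors and the regulator Hsbp1, was called, and Hsf1 had 0.05 ± 0.07 and 0.08 ± 0.07. The smallest P among them belonged to Hsbp1, a negative regulator of HSF1 (−0.12 ± 0.06 in young mice, edgeR adjusted P = 0.194).

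**Figure D5:**
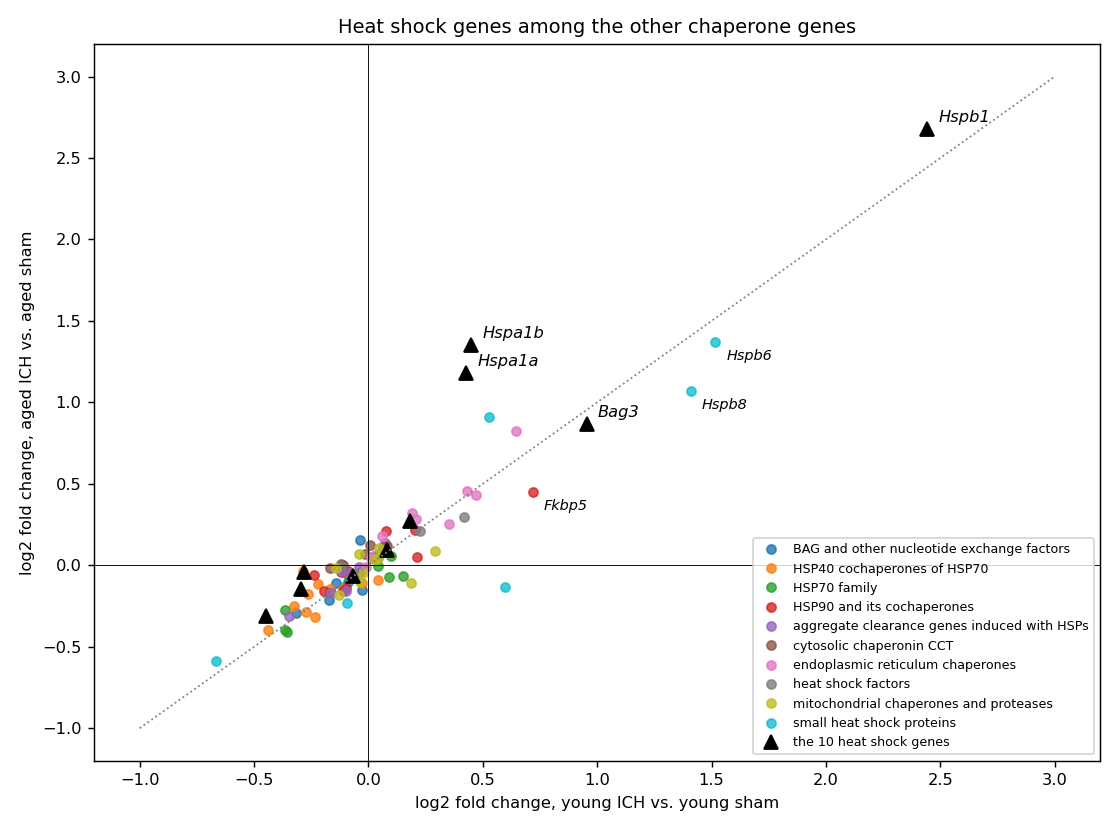
Log2 fold change after ICH in young mice (horizontal) against aged mice (vertical) for the 10 heat shock genes and the 85 other chaperone genes tested. Hspb1, Hspb6, Hspb8 and Bag3 lie at the upper right, and Hspa1a and Hspa1b lie above the line of equal response.

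The members did not vary as 1 block within groups. After subtraction of the group means, Pearson's r of log2 CPM over the 12 samples was above 0.5 for 13 of the 45 pairs, below −0.5 for 5, and between these limits for 27. It was 0.884 for Hsph1 and Hspa8, 0.826 for Hspe1 and Hspd1, 0.823 for Bag3 and Hspd1, and 0.753 for Hspa1a and Hspa1b. The 5 negative pairs all held Dnajb1, from −0.823 with Hspd1 to −0.609 with Hspa8. Dnajb1 deviated most from its group mean in young ICH samples 2 (0.102 in log2 CPM) and 3 (−0.071). The next largest deviation was −0.035, in aged sham sample 3. The young ICH group therefore weighs most in these negative values, and they do not show a pattern in every group. Some positive values also lean on few samples. Hspe1 and Hspd1 deviated most in young ICH samples 2 (−0.289 and −0.154) and 3 (0.201 and 0.146), where Bag3 had −0.26 and 0.364. Hspa1a and Hspa1b deviated most in aged ICH sample 1 (0.549 and 0.42). The positive values of these pairs do not show a pattern in every group either. The r of Hspa1a was near 0 with Hspa8 (−0.05), Hspe1 (0.05) and Hspd1 (−0.02). These values describe samples that share library depth and tissue composition, and for Hspa1a and Hspa1b also shared reads.

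Genes outside the group with the most similar pattern over the 12 samples were ranked by Pearson's r of log2 CPM. For Hspa1b they were Parp10 (0.970), Tapbpl (0.963), Stat2 (0.951), Irf1 (0.950) and Irf2bpl (0.947). Within groups, the r of these 5 genes ranged from 0.688 for Irf1 to 0.951 for Tapbpl. For Hspb1 they were Eif2s2 (0.989), Ostf1 (0.987), Sat1 (0.984), Gadd45g (0.983) and Slamf6 (0.983). For Hspa8 they were Ppa1 (0.966), Tm9sf2 (0.959), Ift57 (0.959), Gm9816 (0.958) and Snx3 (0.956). Each r mixes the difference between groups with the variation inside them.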

How the data were processed

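Perihematomal RNA of 12 samples was sequenced as paired ends after NEBNext Ultra library preparation. The authors aligned reads with HISAT2 to GRCm38.p6 and counted them per gene with featureCounts; the strand setting and the treatment of reads with several matches are not given in the sources used here. The deposited table holds raw counts and FPKM per sample and gene. In that table, 0 columns of per-sample values were left unassigned.

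The counts were fitted with edgeR 4.0.16 (R 4.3.3, limma 3.58.1) by the quasi-likelihood F test, with TMM normalization, filterByExpr at a minimum count of 10, and all 12 samples in a single fit of 4 group means. P values were adjusted by Benjamini-Hochberg over 21495 genes and called below 0.05. The SE is the size of the log2FC divided by the square root of F. CPM use TMM-scaled library totals, and r uses log2 CPM with a prior count of 2. FPKM served only for levels between genes. DESeq2 (1.42.0), the replicate block and the other alternatives are given at the end. The study used an earlier version of DESeq2, whereas here it was run on the filtered genes of all 12 samples and called by adjusted P. The study's limits on fold and unadjusted P were applied here to the edgeR values. The script was tested on simulated data. All 10 genes are described in every comparison, and from each chaperone list up to 4 called genes by size of log2FC, or else the gene with the smallest P. Hsf1 and Hsp90ab1 were added after their values were seen. The members and lists were chosen with earlier results of these data known. At a depth of 28410896 to 37785160 counts, Hspa1a, a gene of a few CPM in sham mice, had over 100 counts in every sample. The lowest count of Hspb1 was 96, in aged sham sample 2.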

Additional observations from a re-analysis of the deposited data

Results flagged for a closer look

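In the edgeR fit, 3 genes had a response to ICH that differed between aged and young mice at an unadjusted P below 0.05, and none of them passed adjustment over all genes. The difference of log2 fold changes was 0.90 for the inducible HSP70 gene Hspa1b and 0.75 for its near copy Hspa1a, each with the larger log2 fold change in aged mice. For Dnajb1 it was 0.24, with a fall in young mice and aged groups that overlapped. All 3 aged ICH samples were the highest of the 12 for Hspa1a and Hspa1b, and aged ICH sample 1 was the highest of these for both. Without that sample the differences were 0.42 (Hspa1a), 0.66 (Hspa1b) and 0.25 (Dnajb1). The unadjusted edgeR P of Hspa1a was at or above 0.05 in 7 of 12 fits that left out 1 sample each. Over these 12 fits the differences ranged from 0.42 to 0.94, from 0.66 to 1.05 and from 0.20 to 0.295, in the order Hspa1a, Hspa1b, Dnajb1. In aged ICH sample 1, the striatal neuron markers had their lowest sum (326.6 CPM) and the endothelial and neutrophil markers their highest (323.6 and 48.8 CPM), and the part of these in the heat shock values was not tested.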

How the results depend on the processing

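Of 850 values (log2 fold changes of the heat shock genes under an alternative), 814 kept their direction and their side of the threshold, 12 lost a call, 8 gained one and 16 changed sign. The 16 came from fits without 1 sample and concerned values that were never called: over these fits the difference in response between ages ranged from −0.21 to 0.44 for Hspb1, −0.05 to 0.057 for Hsp90aa1, −0.23 to 0.12 for Bag3, −0.038 to 0.191 for Hspe1 and −0.057 to 0.088 for Hspd1, and aged ICH vs. young ICH ranged from −0.166 to 0.066 for Hspe1 and −0.123 to 0.025 for Hspd1. The lost calls were those of Hspa8 in young mice and of Hsph1 and Bag3 in aged mice. RLE normalization changed no call.

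With the study's criterion for pairs of groups, 2 heat shock genes passed in young ICH vs. sham and 2 in aged ICH vs. young ICH, and the same limits applied to the difference between ages, where the study used another rule, gave 2. Without a filter on low counts, 1 was called in aged ICH vs. young ICH. DESeq2 called 2 in aged ICH vs. young ICH and 2 in aged vs. young sham, and the cause was not tested. Of all genes it called 198 and 294 in these comparisons, against 12 and 22 by edgeR. In fits without 1 sample, the calls numbered 4 to 5 in young mice and 3 to 6 in aged mice, with 3 without aged ICH sample 1 and 6 without young ICH sample 2, and stayed at 0 between ages.

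The other chaperones, whose alternatives were chosen after seeing the data, gave 5 calls in young and 3 in aged mice by the study's criterion, 8 in young mice with only the groups compared in the fit, and 21 in aged mice and 5 in aged vs. young sham by DESeq2. Of all genes, DESeq2 called 3683 in aged mice and 294 in aged vs. young sham, against 2828 and 22 by edgeR. Fits without 1 sample gave 7 to 16 calls in young mice and 1 to 21 in aged mice. For these fits, and those of only the groups compared, the number of all genes called is not given here. A change particular to the chaperones therefore cannot be told from a change in all calls.

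Same-numbered samples of different groups did not deviate together, with correlations of −0.454 to 0.235, so no pairing by number was seen. With 3 samples per group, a small effect shared by number could be missed. With the replicate number as a block, 5 heat shock genes were called in young and 4 in aged mice, the call of Hsph1 in aged mice being lost, and 3502 and 2464 of all genes were called, against 4110 and 2828. The 3 pools per group limit what can be shown for differences near the SE of 0.2 to 0.3 of the inducible genes.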
